A study of Homo sapiens with 16 samples.

Results

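CGAS, STING1, TBK1, IFI16, TREX1, SAMHD1, RNASEH2A, RNASEH2B and RNASEH2C are genes of cytosolic DNA sensing and of the enzymes that remove stray nucleic acid. They were taken by symbol from 2 tables of gene expression, and each of the 9 symbols matched 1 of the 60669 genes in both tables. The tables come from HMC3, an immortalised human cell line that the labels describe as a microglial cell, either wild type (WT) or labelled METTL3 KO, a knockout of the catalytic subunit of the enzyme that writes N6-methyladenosine on RNA. No treatment is named for either genotype, and whether the knockout is 1 clone is not given in the sources used here. Smart-seq2, which primes on poly(A) tails, gave 5 libraries per genotype, and rRNA depletion followed by a directional kit gave 3 libraries per genotype.

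Cyclic GMP-AMP synthase, encoded by CGAS, binds double-stranded DNA in the cytosol and makes the messenger cGAMP. The messenger binds STING, an endoplasmic reticulum protein encoded by STING1, which moves to the Golgi and recruits the kinase TBK1, and TBK1 phosphorylates the transcription factor IRF3 to switch on type I interferon. IFI16 is a nuclear DNA-binding protein of the PYHIN family that also feeds into STING. TREX1 degrades cytosolic DNA, SAMHD1 hydrolyses deoxynucleotides and acts at stalled replication forks, and RNase H2, with the catalytic subunit RNASEH2A and the subunits RNASEH2B and RNASEH2C, removes ribonucleotides from DNA and RNA from RNA-DNA hybrids. Inherited loss of TREX1, SAMHD1 or an RNase H2 subunit causes Aicardi-Goutieres syndrome, an interferon-driven brain disease, and in microglia the cGAS-STING route is a known source of interferon.

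The rRNA-depleted libraries were deposited as TPM, a level per unit of gene length, so comparisons between genes depend on the lengths used. The whole reads behind these values could be recovered, and the depth was 266157 to 487272 reads in the 3 wild-type libraries and 512627 to 1267171 reads in the 3 libraries labelled knockout. Knockout-labelled libraries 1 and 2 did not differ detectably beyond sampling noise (chi-square test of reads over 10117 genes, 1.02 per degree of freedom, p = 0.0687), where the other 5 pairs within a genotype gave 1.16 to 1.54 per degree of freedom, so they were averaged and counted as 1 sample. The comparison was then 3 wild-type samples against 2 with the knockout label. METTL3 itself stood at 25.4 to 31.6 TPM in the wild type and 39.2 to 42.7 TPM in the libraries labelled knockout (limma adjusted p = 0.106), and the authors' deposited table had it at 0.09 on the log2 scale (SE 0.11, adjusted p = 0.654), so in neither library type does its mRNA check the genotype. Directions are therefore given for libraries labelled knockout relative to wild type. Of 15 microglial marker genes, 11 were at 0 TPM in all 6 libraries, among them AIF1, CX3CR1, P2RY12, TMEM119, ITGAM, PTPRC, SPI1 and TYROBP. A list of 12 fibroblast and pericyte markers summed to 11624 to 13967 TPM in the wild type, most of it COL1A1, and to 3528 to 3657 TPM with the knockout label; FN1, most of the latter sum, went from 802.5 to 870.9 TPM up to 2168 to 2237 TPM, and TAGLN from 307 to 388 TPM to 373 to 404 TPM. Their part in the results below was not tested. The poly(A) libraries were deposited only as the authors' table of 1 comparison, with no value per library, and a positive log2 fold change in it was taken as higher in knockout, a reading under which 91.5% of 177 genes had the same sign in both library types, these being the genes past the threshold with absolute log2 changes of 1 or more in each. The labels do not say whether the libraries of a genotype came from separate cultures, so p-values measure only the spread between these libraries, which may be technical.

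In the rRNA-depleted libraries 2 of the 9 genes passed the test (limma on log2(TPM + 1), adjusted p under 0.05 over all genes): IFI16 was higher and CGAS lower with the knockout label. Over all 14789 genes tested 35.3% passed, 22.9% higher and 12.4% lower, so the share among the 9 was not above that of genes at large. With median ratio scaling, which moves the median log2 change of all genes from 0.41 to 0.11, 2364 genes were higher and 2499 lower. With the GC trend removed, which sets each gene against genes of like GC content, the split was 1636 and 2260. With limma voom on the recovered reads it was 3948 and 3516. Without knockout-labelled library 3, which leaves 1 knockout-labelled sample assumed to vary like the wild type, 1663 genes passed, and CGAS and IFI16 were again the 2 of the 9. In poly(A) RNA 3 of the 9 genes had an adjusted p under 0.05 in the authors' deposited table, IFI16, SAMHD1 and STING1, all of them higher, against 19.9% of the 14009 genes with an adjusted p, 9.55% higher and 10.3% lower. IFI16 was the 1 gene of the 9 past the threshold in both library types, with the same direction in each. Of the 12498 genes tested in both types 10.6% passed in both, 7.15% with the same direction. The median log2 change of the 9 in the rRNA-depleted libraries was TREX1's own value, which rests on 11 reads, and the median of the other 8 was 0.24, against 0.41 for all genes. For the 9 genes the authors' deposited table had a median of -0.05, against 0.02 for all genes.

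**Figure D1:**
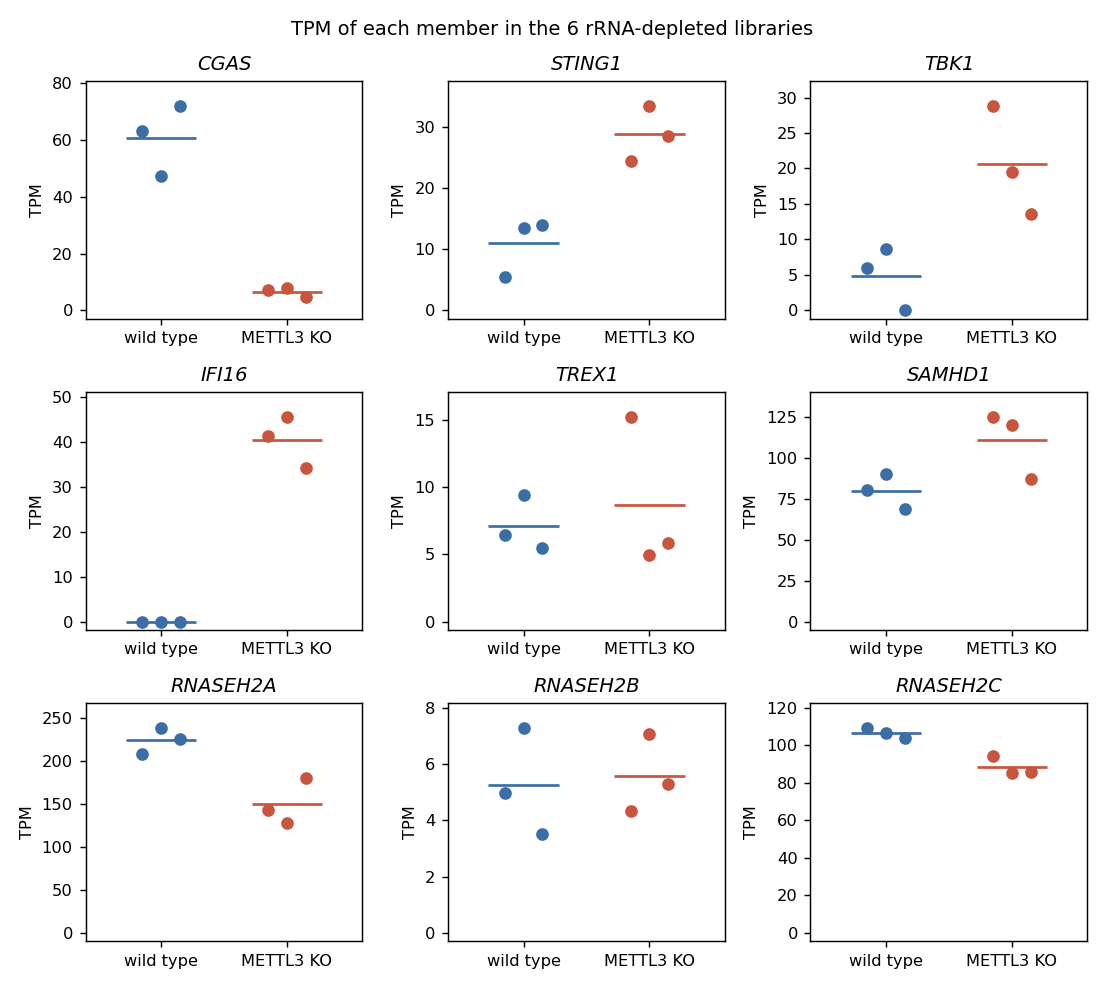
TPM on the vertical axis of each panel (scales differ) for the 9 genes in the 3 wild-type (blue) and 3 knockout-labelled (red) rRNA-depleted libraries; each point is 1 library in the order of its number and each bar the mean of 3 libraries. CGAS falls from 47.3 to 72.0 TPM in the wild type to 4.66 to 7.91 TPM with the knockout label, and IFI16 goes from 0 in the 3 wild-type libraries to 34.2 to 45.5 TPM.

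Wild-type libraries 1 to 3 had 63.1, 47.3 and 72.0 TPM of CGAS, the sensor, and knockout-labelled libraries 1 to 3 had 7.26, 7.91 and 4.66 TPM. Every wild-type library lay above every knockout-labelled one. Its level averaged 60.8 ± 12.5 TPM (SD, n = 3) against 6.12 ± 2.07 TPM (SD, n = 2), which is 9.93-fold lower, from 37, 19 and 50 reads against 9, 12 and 3. The log2 change was -3.13 (SE 0.30, limma adjusted p = 0.00261), and it passed under each of 15 alternative settings. In bulk RNA, fewer cells with a transcript and less of it per cell cannot be told apart. An exact permutation test over 3 against 2 samples cannot go below p = 0.2, the value reached by CGAS and by each of the 6 genes of the 9 whose samples did not overlap, as those of 62.7% of all genes did not. The authors' deposited table gave CGAS a log2 fold change of -0.30 (SE 0.32, adjusted p = 0.585) at a mean normalized count of 14.8. The 95% interval around that value in the authors' deposited table ran from -0.93 to 0.33, and the interval in the rRNA-depleted libraries from -3.90 to -2.36. The 2 intervals do not overlap; the difference between library types was not tested. The gene (ENSG00000164430; chromosome 6, 73413515 to 73452276, minus strand, GRCh38) overlaps DDX43 on the opposite strand by 4055 bases, and DDX43 had 0 TPM except in knockout-labelled library 1, where it had 1.19 TPM. Whether reads were counted by strand is not given in the sources used here, so reads of overlapping genes cannot be told apart with certainty.

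STING1, which encodes the cGAMP receptor, was low in the wild type, at 5.52, 13.4 and 14 TPM, and stood at 24.4, 33.4 and 28.5 TPM with the knockout label. The samples did not overlap. STING1 averaged 11.0 ± 4.74 TPM (SD, n = 3) against 28.7 ± 0.277 TPM (SD, n = 2), a ratio of 2.61, from 3, 5 and 9 reads against 28, 47 and 17. The log2 change of 1.41 (SE 0.45) missed the threshold (limma adjusted p = 0.0639), and it passed under 5 of the 15 alternatives, at 0.0464 without wild-type library 1 and at 0.0142 with limma voom on the recovered reads. STING1 rose 1.90-fold in the authors' deposited table (log2 0.93, SE 0.23, adjusted p = 0.000668), at a mean normalized count of 31.8. The gene lies on chromosome 5, 139475534 to 139482935, minus strand (GRCh38), and overlaps no other annotated gene.

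TBK1, the kinase that STING recruits, had 5.95, 8.69 and 0 TPM in the wild type and 28.9, 19.6 and 13.6 TPM with the knockout label. All knockout-labelled libraries lay above all wild-type ones, from 41, 34 and 10 reads against 4, 4 and 0. TBK1 averaged 4.88 ± 4.44 TPM (SD, n = 3) against 18.9 ± 7.53 TPM (SD, n = 2). The log2 change of 2.24 (SE 1.08) missed the threshold (limma adjusted p = 0.165), with a 95% interval from -0.49 to 4.96. The 0 in wild-type library 3 carried much of the size: without that library the log2 change was 1.22 (limma adjusted p = 0.113). With limma voom on reads it passed, at an adjusted p of 0.0001815. TBK1 stood at a log2 fold change of -0.05 in the authors' deposited table (SE 0.11, adjusted p = 0.802) at a mean normalized count of 141, with a 95% interval from -0.27 to 0.16. TBK1 lies on chromosome 12, 64451880 to 64502108, plus strand (GRCh38), and shares 1022 bases with the antisense gene AC135279.3, at 0 TPM except 2.56 TPM in knockout-labelled library 1. The rRNA-depleted value of 2.24 lies outside the interval from the authors' deposited table, and that interval overlaps the rRNA-depleted one.

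IFI16, the PYHIN DNA sensor and itself an interferon-inducible gene, had 41.2, 45.5 and 34.2 TPM in knockout-labelled libraries 1 to 3 and was listed at 0 in each of the 3 wild-type ones. No wild-type read fell on it, against 65, 88 and 28 reads. A count of 0 allows up to 3 reads per library, worth 4.01, 5.86 and 3.39 TPM of IFI16 in the wild-type libraries in turn, and against that limit the knockout-labelled mean of 38.7 ± 6.49 TPM (SD, n = 2) was at least 8.76-fold higher. Such limits speak to counting error alone: reads without molecular identifiers are not independent molecules. The limma adjusted p was 0.00169, and at most 0.00863 under the 15 alternatives. IFI16 entered the test only through the knockout-labelled libraries, and its wild-type values of 0 have no spread. Alternatives that left out a wild-type library could not move its log2 change, which stayed at 5.30. These p-values are therefore no separate support for its rise. IFI16 rose 2.58-fold in the authors' deposited table (log2 1.37, SE 0.13, adjusted p = 8.86e-25) at a mean normalized count of 125. At that mean count, a 2.58-fold rise means that the wild-type poly(A) libraries also held IFI16 reads. The wild-type 0 is therefore that of the rRNA-depleted libraries alone. The upper end of the interval in the authors' deposited table was 1.61 on the log2 scale, against a bound of 3.13 from the rRNA-depleted libraries; the difference between the types was not tested. The gene lies on chromosome 1, 158999968 to 159055155, plus strand (GRCh38), and no annotated gene overlaps it.

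Upstream sequence was compared for the members with a RefSeq promoter entry (GRCh38.p14), which 7 of the 9 had, with 9 start sites among them; CGAS and STING1 were not matched. Windows of 250 bases before the start are shown for IFI16 and SAMHD1, the matched genes that rose in poly(A) RNA, and for TBK1, which did not pass in either library type. They are written 5′ to 3′ on the gene's strand, with each CpG dinucleotide in capitals.
IFI16, upstream start, chr1:159008741-159008990, plus strand: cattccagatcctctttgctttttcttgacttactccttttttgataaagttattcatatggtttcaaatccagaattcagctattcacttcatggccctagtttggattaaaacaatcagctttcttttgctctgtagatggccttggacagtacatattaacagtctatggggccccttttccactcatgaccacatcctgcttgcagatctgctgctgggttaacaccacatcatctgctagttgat
IFI16, downstream start, chr1:159009657-159009906, plus strand: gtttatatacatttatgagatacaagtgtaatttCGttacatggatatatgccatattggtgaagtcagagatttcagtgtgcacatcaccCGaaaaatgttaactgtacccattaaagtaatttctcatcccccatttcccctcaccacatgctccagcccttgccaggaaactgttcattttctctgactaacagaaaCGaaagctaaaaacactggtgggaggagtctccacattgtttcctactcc
SAMHD1, chr20:36951709-36951958, minus strand: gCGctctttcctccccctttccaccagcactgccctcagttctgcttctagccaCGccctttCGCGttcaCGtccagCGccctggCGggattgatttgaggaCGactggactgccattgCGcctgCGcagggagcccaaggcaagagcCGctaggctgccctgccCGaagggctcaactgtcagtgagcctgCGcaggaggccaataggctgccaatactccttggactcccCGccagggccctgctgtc
TBK1, chr12:64451870-64452119, plus strand: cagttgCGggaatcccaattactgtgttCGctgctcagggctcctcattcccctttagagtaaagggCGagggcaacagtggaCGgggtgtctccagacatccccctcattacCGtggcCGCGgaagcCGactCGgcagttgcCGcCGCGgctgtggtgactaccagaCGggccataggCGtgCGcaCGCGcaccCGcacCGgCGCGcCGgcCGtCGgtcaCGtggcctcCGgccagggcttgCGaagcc
The IFI16 windows hold 0 and 3 CpG, the SAMHD1 window 14 and the TBK1 window 27, where the median of all 35116 promoter windows of that length was 11. Of all windows 29.3% held 3 or fewer. TREX1 also had 3, RNASEH2C 12, RNASEH2A 26 and RNASEH2B 10 and 26 at its 2 starts. Like TBK1, these genes did not pass in either library type, and the TBK1 window held the most CpG of the 9 windows. The core of the interferon-stimulated response element, searched as GAAANNGAAA on both strands, was in 0 of the 9 windows and in 3.02% of all windows. The gamma-activated site, TTCNNNGAA, which reads the same on both strands, was also in 0 of the 9, and in 6.57% of all. The starts are those of RefSeq and differ from the gene bounds given in this report. By those bounds both IFI16 windows lie inside the gene, as do most bases of the SAMHD1 and TBK1 windows. Sequence before the IFI16 bound of 158999968 was not searched. A lack of these letters in the windows says nothing of the factors that bind elsewhere.

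TREX1, the main DNA exonuclease of the cytosol, was too thinly covered to compare. It had 6.45, 9.42 and 5.45 TPM in the wild type and 15.3, 4.99 and 5.88 TPM with the knockout label, and these values rest on 1 read in each wild-type library and on 5, 2 and 1 reads with the knockout label. Per read of depth the knockout-labelled libraries had 1.10 times the wild-type value, with an exact 95% interval for counting error from 0.264 to 6.43. The limma log2 change was 0.14 (SE 0.45, adjusted p = 0.834). For TREX1 the authors' deposited table gave a value of -0.39 on the log2 scale (SE 0.25, adjusted p = 0.302). TREX1 (chromosome 3, 48465811 to 48467645, plus strand, GRCh38) lies wholly inside ATRIP on the same strand, so reads of the 2 genes may have been split or mixed. ATRIP had 0 to 13.4 TPM in the wild type and 11.4 to 16.1 TPM with the knockout label.

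SAMHD1, the deoxynucleotide hydrolase, had 80.1, 90.4 and 68.9 TPM in wild-type cells and 125, 120 and 87.2 TPM with the knockout label. Knockout-labelled library 3 lay below the highest wild-type library, so the groups overlapped. The log2 change was 0.38 (SE 0.20, limma adjusted p = 0.207), with a 95% interval from -0.14 to 0.89, and it was -0.03 relative to the median of all genes. With the trend on GC content removed it was -0.39, a change relative to genes of like GC content. No direction is therefore given for SAMHD1 in total RNA. SAMHD1 rose 1.59-fold in the authors' deposited table (log2 0.67, SE 0.09, adjusted p = 1.25e-12) at a mean normalized count of 250.5. It had the most reads of the 9 genes in the libraries labelled knockout, 188, 221 and 68 against 57, 44 and 58. SAMHD1 (chromosome 20, 36889773 to 36951901, minus strand, GRCh38) shares 4463 bases with TLDC2 on the opposite strand, which was at 0 TPM throughout.

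No RNase H2 subunit passed the test in either library type. RNASEH2A, the catalytic subunit, had 208, 239 and 226 TPM in the wild type and 143, 128 and 181 TPM with the knockout label, and the groups did not overlap. RNASEH2A averaged 224 ± 15.1 TPM (SD, n = 3) against 158 ± 32 TPM (SD, n = 2). The log2 change of -0.52 (SE 0.16) just missed the threshold, with a limma adjusted p of 0.0537, and it passed under 6 of the 15 alternatives, including median ratio scaling (-0.87, limma adjusted p = 0.0196) and the removal of the GC trend (-0.81, limma adjusted p = 0.0291). The authors' deposited table gave RNASEH2A a log2 fold change of -0.25 (SE 0.14, adjusted p = 0.247). RNASEH2A (chromosome 19, 12806556 to 12815201, plus strand, GRCh38) lies within HOOK2 on the opposite strand, and HOOK2 had 17.4 to 38.2 TPM in the wild type and 7.6 to 16.1 TPM with the knockout label. Its part in the RNASEH2A values was not tested. THSD8, which shares 7026 bases with RNASEH2A on the same strand, was not analysed here.

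RNASEH2C, a subunit that holds the complex together, had 109, 106 and 104 TPM in the wild type and 94.3, 85.2 and 85.6 TPM with the knockout label, again without overlap. The log2 change of -0.28 (SE 0.11, limma adjusted p = 0.103) passed with median ratio scaling and with voom only, at adjusted p-values of 0.011 and 0.0116. RNASEH2C had -0.32 (SE 0.13) on the log2 scale in the authors' deposited table, with an adjusted p of 0.0582. RNASEH2C (chromosome 11, 65714005 to 65720947, minus strand, GRCh38) overlaps KAT5 on the opposite strand by 5600 bases, at 13.9 to 24.7 TPM in the wild type and 21.6 to 34.5 TPM with the knockout label.

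RNASEH2B, the third subunit, was read at 4.99, 7.29 and 3.51 TPM in the wild type and at 4.33, 7.07 and 5.31 TPM with the knockout label, from 5 to 22 reads. The log2 change was 0.10 (SE 0.45, limma adjusted p = 0.885), with a 95% interval from -1.05 to 1.25 that leaves changes of either sign possible. For RNASEH2B the authors' deposited table gave 0.07 (SE 0.18, adjusted p = 0.844), with an interval from -0.28 to 0.42. Per library the TPM of RNASEH2A was 32.7 to 64.3 times that of RNASEH2B in the wild type and 18.0 to 34.0 times with the knockout label. The TPM of RNASEH2A over RNASEH2C was 1.91 to 2.24 in the wild type and 1.5 to 2.11 with the knockout label. Both pairs of ranges overlap. RNASEH2B spans chromosome 13, 50909678 to 51024120, plus strand (GRCh38), and its length as implied by the authors' TPM, 8519 bases, is well under the 26291 bases of all its annotated exons. It shares 29610 bases with GUCY1B2 and 1087 bases with RNASEH2B-AS1, both on the opposite strand and at 0 TPM throughout.

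**Figure D2:**
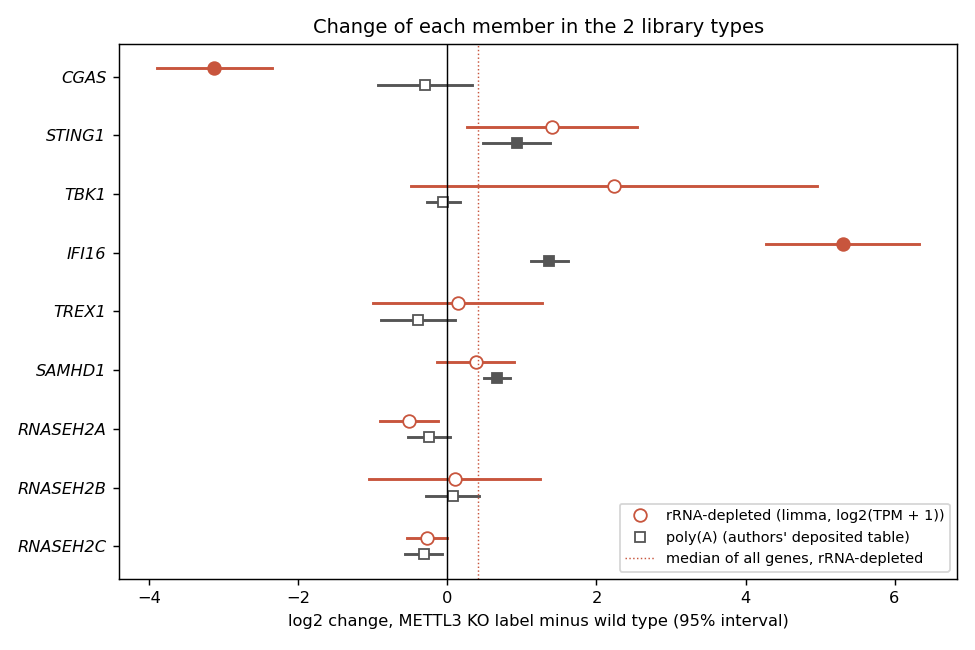
Log2 change, knockout label minus wild type, on the horizontal axis for each of the 9 genes, in the rRNA-depleted libraries (red circles, limma) and the authors' deposited poly(A) table (grey squares), with 95% intervals; filled marks have an adjusted p under 0.05 and the dotted line is the rRNA-depleted median of all genes, 0.41. The rRNA-depleted value of IFI16 depends on the pseudocount, since its wild-type libraries are at 0. IFI16 is filled in both, CGAS in the rRNA-depleted libraries only, and STING1 and SAMHD1 in the poly(A) table only; the difference between the types was not tested.

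Per unit of length the levels of the 9 genes in the rRNA-depleted libraries had a different order in the 2 genotypes. The order within a genotype depends on the gene lengths used. In the wild type RNASEH2A came first, with a mean of 224 TPM, followed by RNASEH2C (106), SAMHD1 (79.8) and CGAS (60.8). The ranges of SAMHD1 and CGAS overlapped, and CGAS was clear of STING1 (11.0 TPM), the next. STING1, TREX1, RNASEH2B and TBK1 each overlapped their neighbour, and IFI16 was last, at 0. With the knockout label, over its 3 libraries, RNASEH2A led at 150.4 TPM and SAMHD1 (111) overlapped RNASEH2C (88.4). IFI16 followed at 40.3 TPM, clear of RNASEH2C above and of STING1 (28.8) below. CGAS, at 6.61 TPM, came next to last, overlapping TREX1 above and RNASEH2B below. The samples of the 2 genotypes did not overlap for 6 of the 9 genes, 3 higher and 3 lower, against 62.7% of all genes tested, 41.1% higher and 21.6% lower.

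Transcript GC content moved with the log2 changes of all genes in the rRNA-depleted libraries, with a Spearman correlation of -0.37 over 14669 genes that share these libraries and are no replicates of one another. The 9 genes range from 38.6% GC for IFI16 to 63.1% for TREX1. Tested genes within 1 percentage point of CGAS, at 43.6% GC, had a median log2 change of 0.91, opposite in sign to its own -3.13. Around IFI16 the median was 1.15 and around TBK1, at 39.3% GC, it was 1.10, in the direction of both genes. Genes near STING1, at 56.8% GC, had a median of 0.02, below its 1.41. Around RNASEH2A the median was 0.30 and around RNASEH2C 0.03, while both of these genes were under 0. Around SAMHD1, at 44.4% GC, it was 0.81, above that gene's 0.38.

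**Figure D3:**
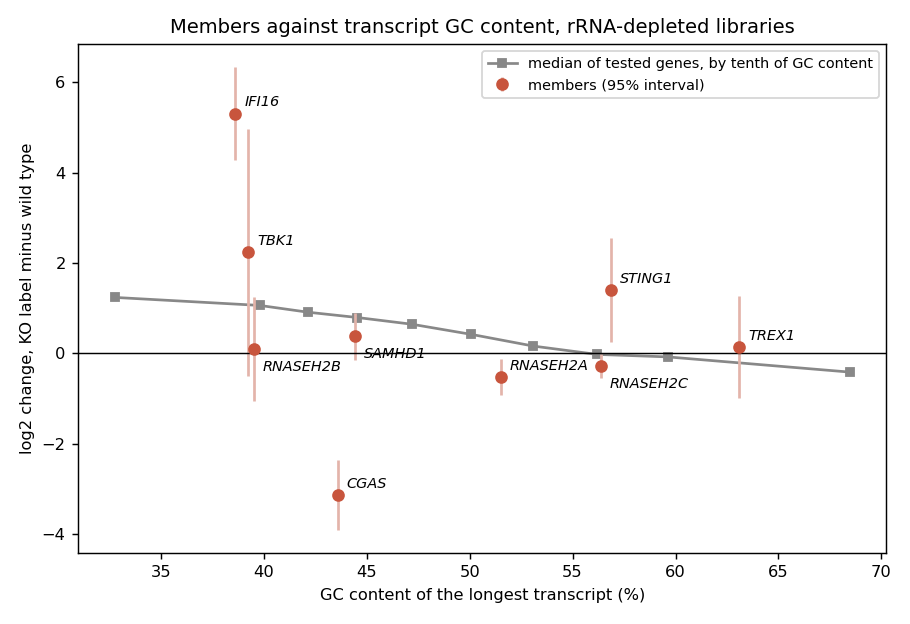
Log2 change in the rRNA-depleted libraries, knockout label minus wild type, against the GC content of the longest transcript in percent; red points are the 9 genes with 95% intervals and grey squares the median of all tested genes, split by GC content into groups of equal number. The grey line falls from 1.24 to -0.41, and CGAS and IFI16 lie farthest from it.

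A further 80 genes around the pathway, in 5 lists, put the 9 in context. In the rRNA-depleted libraries 68 of them were tested, of which 25 rose and 5 fell (44.1%, against 35.3% of all genes). Median ratio scaling gave 18 and 9, limma voom 27 and 14, and leaving out knockout-labelled library 3 gave 8 and 3. Of the 68 tested in the authors' deposited table, 12 rose and 10 fell (32.4%, against 19.9% of all genes). The median log2 change of the 68 was 0.61 in the rRNA-depleted libraries, or 0.55 with the 3 genes whose wild-type libraries all held 3 reads or fewer at their bound, and 0.06 in the authors' deposited table. Of the 68 genes 12 passed in both library types. Of all 68, 36 exceeded the median of tested genes within 1 percentage point of their GC content. Of the 25 that rose in the rRNA-depleted libraries, which were picked for their rise, 21 did.

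Among 15 genes that regulate cGAS or carry cGAMP, 14 were tested and 6 rose and 1 fell in the rRNA-depleted libraries (limma, adjusted p under 0.05), with a median of 0.71. Of all genes 35.3% passed, 22.9% higher and 12.4% lower, with a median of 0.41, against 50% of these 14. Of the 14, 6 exceeded the median of tested genes of like GC content. LRRC8C, a subunit of the volume-regulated anion channel that passes cGAMP, had 0.604 to 1.02 TPM in the wild type and 8.81 to 11.4 TPM with the knockout label, at least 4.78-fold higher. PPP6C, a phosphatase subunit that acts on cGAS, rose by 2.40 on the log2 scale (SE 0.27). TRIM14, which protects cGAS from degradation, rose by 1.24 (SE 0.24), and G3BP1, a stress granule protein that aids DNA binding by cGAS, by 1.11 (SE 0.16), where genes of like GC content had a median of 1.17. The 1 that fell was ZCCHC3, a cofactor of cGAS, with a log2 change of -1.99 (SE 0.21), named after its value was seen. Of 14 genes in the authors' deposited table, 3 rose, TRIM14 (1.19), LRRC8C (0.55) and G3BP1 (0.33), and 3 fell, SLC19A1 (-0.69), BANF1 (-0.48) and PQBP1 (-0.43), with a median of -0.07. These were 42.9% of the 14, against 19.9% of all genes, 9.55% higher and 10.3% lower. The 3 that fell there, the cGAMP importer SLC19A1, the DNA-binding protein BANF1 and the cGAS adaptor PQBP1, were named after their values were seen. PPP6C did not pass there, at -0.08 (SE 0.09).

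Of 20 genes of STING trafficking and turnover, 8 rose and 1 fell in the rRNA-depleted libraries, with a median of 0.79, or 0.53 with USP18 at its bound. This was 45% of the 20, against 35.3% of all genes, and 14 of the 20 exceeded the median of genes of like GC content. Of the coat and Golgi transport genes, SAR1A rose by 2.0 (SE 0.23), YIPF5 by 1.75 (SE 0.26), TMED2 by 1.67 (SE 0.15) and SURF4 by 0.70 (SE 0.15) on the log2 scale. NPC1, a lysosomal cholesterol transporter, rose by 1.83 (SE 0.38). The 1 that fell was TRIM56, a ubiquitin ligase of this pathway, at -1.28 (SE 0.20), named after its value was seen. Among these trafficking genes in the authors' deposited table, 3 rose and 2 fell (25%, against 19.9% of all genes), with a median of 0.07. SURF4 (0.30), YIPF5 (0.27) and the interferon-induced protease USP18 (1.6, named after its value was seen) were higher, and TMED2 (-0.44) and RNF5 (-0.53) lower. TMED2 thus passed in both library types with opposite signs. SAR1A (0.03, SE 0.07) and NPC1 (0.26, SE 0.16) did not pass in the authors' deposited table.

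Of 14 TBK1 partners and interferon genes, 9 were tested, of which 2 rose and 1 fell in the rRNA-depleted libraries, with a median of 0.41 that became -0.37 with CCL5 at its bound. This was 33.3% of the 9, below the 35.3% of all genes, whose median was also 0.41. TAX1BP1, an autophagy receptor that restrains this signalling, had 0.653 to 3.86 TPM in the wild type and 21.1 to 34.4 TPM with the knockout label, and its log2 change was 3.21 (SE 0.60, limma adjusted p = 0.0136). IRF3, the factor that TBK1 phosphorylates, fell from 95.5 to 115 TPM to 42.4 to 47.7 TPM, by 1.14 on the log2 scale (SE 0.14, limma adjusted p = 0.00425). Neither passed in the authors' deposited table, with 0.29 for IRF3 and 0.06 for TAX1BP1. There 2 other genes rose, CCL5 (3.27) and IRF7 (0.69), both named after their values were seen. The median was 0.20, and 22.2% of the 9 tested there passed, against 19.9% of all genes. IFNB1, IFNA1, IFNL1, IFNL2 and CXCL10 had 0 TPM in each of the 6 rRNA-depleted libraries. Their mean normalized counts in the authors' deposited table were 0.373 or less, and none had an adjusted p there.

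Of 15 other DNA sensors, 11 were tested, and 7 rose and 0 fell in the rRNA-depleted libraries by limma, with a median of 0.96, against 22.9% higher and 12.4% lower among all genes; at an unadjusted p under 0.05 0 fell, and with limma voom 0. Genes of like GC content had medians of 0.01 to 1.19 around the 11 sensors. Of the 11, 6 exceeded their own such median, 5 of them among the 7 that rose. HMGB1, an abundant DNA-binding protein, rose from 12.1 to 12.8 TPM to 41.8 to 55.1 TPM, a log2 change of 1.82 (SE 0.22). XRCC5 and PRKDC, parts of the DNA-dependent protein kinase, rose by 1.49 (SE 0.18) and 1.25 (SE 0.11). HNRNPA2B1, an RNA-binding protein also described as a nuclear DNA sensor, rose by 0.53 (SE 0.11), where genes of like GC content had a median of 1.05. Among the sensors in the authors' deposited table, 2 rose, PRKDC (0.36) and LRRFIP1 (0.34), and 2 fell, HNRNPA2B1 (-0.27) and HMGB1 (-0.20), with a median of 0.05. These were 36.4% of the 11 tested there, against 19.9% of all genes. XRCC5 did not pass there, at 0.05 (SE 0.05). AIM2, MNDA, PYHIN1 and TLR9 had too few reads to be tested, so IFI16 was the 1 member of the PYHIN family that was.

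Of 16 further nucleases and Aicardi-Goutieres genes, 14 were tested and 2 rose and 2 fell in the rRNA-depleted libraries, with a median of 0.16. This was 28.6% of the 14, below the 35.3% of all genes, and 6 of the 14 exceeded the median of genes of like GC content. ADAR, which edits double-stranded RNA, rose by 2.17 (SE 0.23), and APEX1, a DNA repair endonuclease, by 1.57 (SE 0.18). FEN1, the flap endonuclease that works beside RNase H2, fell by 0.52 (SE 0.10), from 288 to 326 TPM to 197 to 231 TPM. RNASEH1, which also cuts RNA-DNA hybrids and was named after its value was seen, fell by 0.94 on the log2 scale (SE 0.13, limma adjusted p = 0.00586). Among the nucleases in the authors' deposited table, 2 rose, ADAR (0.77) and the RNA sensor IFIH1 (2.84, named after its value was seen), and 3 fell, SKIC2 (-0.50), APEX1 (-0.28) and FEN1 (-0.23), with a median of -0.07. These were 35.7% of the 14 tested there, against 19.9% of all genes. FEN1 was lower and ADAR higher in both library types, while APEX1 passed in both with opposite signs.

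**Figure D4:**
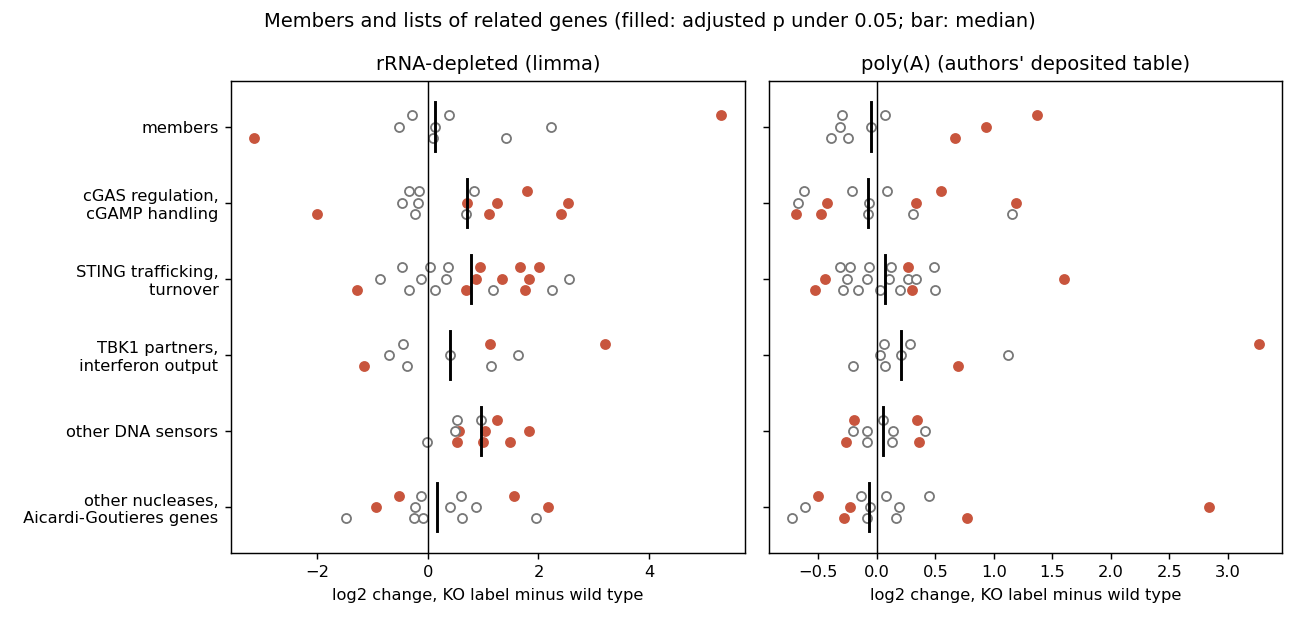
Log2 change, knockout label minus wild type, of the 9 genes and of the 5 lists of related genes, in the rRNA-depleted libraries (left) and in the authors' deposited poly(A) table (right; the horizontal scales differ); each point is a gene, filled where the adjusted p was under 0.05, and each bar the median of the genes tested. All filled points of the other DNA sensors lie above 0 on the left, where the median of all genes was also above 0, at 0.41.

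By root mean square difference of log2(TPM + 1), centred per gene, over the 6 libraries, the genes most like IFI16 were BTF3L4P2 (0.170), TMSB15A (0.205) and NACA3P (0.269). All 3 were listed at 0 in the wild type and reached 8, 9 and 12 reads with the knockout label, against 88 for IFI16. The authors' deposited table had them at 0.58, 0.09 and -0.54 on the log2 scale, none past 0.05.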

How the data were processed

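RNA of HMC3 cells was sequenced after Smart-seq2 (5 WT and 5 METTL3 KO libraries) or rRNA depletion (3 and 3), each made from 100 ng, per the labels' protocols. The submitters' processing notes name Trimmomatic, STAR, DESeq2 and hg38; counting tool, annotation, versions and strand setting are not given in the sources used here. The poly(A) data were deposited as 1 comparison, per the file headers: for each gene a mean normalized count (the signal over all libraries), the log2 fold change and its standard error, a Wald score, and raw and adjusted p-values. Its 95% intervals were computed here from the standard errors. The rRNA-depleted data were deposited as TPM. A count test planned for the poly(A) libraries could not be run, since the table holds no counts.

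Gene lengths, positions and GC content came from GENCODE 29 (GRCh38), which held 56927 of 60669 gene identifiers. The worth of 1 read was the commonest value of TPM times length; 90.9% of values above 0 were then whole reads, to within 0.02. For SAMHD1, TREX1 and the RNase H2 genes the largest unit that made all 6 values whole was used, which implies other gene lengths, so their reads are the smallest whole numbers that fit. A gene needed 1 TPM or more in 3 or more libraries, and log2(TPM + 1) was fitted by limma 3.58.1 (trend; R 4.3.3), which understates changes of low genes, with Benjamini-Hochberg adjustment at 0.05. Averaging knockout-labelled libraries 1 and 2 followed a chi-square test on the 6 pairs of libraries within a genotype, over genes with 10 or more reads in the pair. Only the limma fit was run on simulated data, with knockout-labelled libraries 1 and 2 already merged, so the averaging itself was not tested. Single values had a two-sided exact permutation test (scipy 1.17.1). Python 3.11.15, numpy 2.4.6, pandas 2.3.3 and matplotlib 3.10.9 were also used.

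The 9 genes and the 5 lists were chosen with earlier results of these data known. Of each list, the text names genes past 0.05 in both library types and at most 2 per library type with the largest change among those past 0.05 whose mean reached 5 TPM (50 normalized counts). Others are marked as named after their values were seen.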

Additional observations from a re-analysis of the deposited data

How the results depend on the processing

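Of the 9 genes, CGAS and IFI16 passed under all 15 alternatives. For IFI16, which entered the test only through the knockout-labelled libraries, the limma adjusted p was at most 0.00863. The number past the threshold, 2, became 4 with 6 libraries as separate samples, 4 with median ratio scaling, 4 with a pseudocount of 5 and 6 with limma voom on recovered reads, and lay between 2 and 3 when 1 library was left out. With the replicate number as a block over 6 libraries it was 6, and STING1 (0.023), TBK1 (0.0387), SAMHD1 (0.04) and RNASEH2A (0.0287) then also had limma adjusted p-values under 0.05. The numbers do not pair the libraries: deviations of same-numbered libraries correlated at 0.0203, -0.0205 and 0.00821, and not every library correlated best with its own number. At an adjusted p under 0.01, 18 of the related genes and 2242 of all genes passed, against 30 and 5220. Leaving out 1 library gave 11 to 30 related genes and 1663 to 5185 of all genes, the lowest both without knockout-labelled library 3, and a median of the 9 relative to all genes of -0.43 to -0.0057, against -0.27. In the authors' deposited table requiring a log2 fold change of 1 or more in size left 1 of the 9, 4 related genes and 647 of all genes, and an adjusted p under 0.01 left 1811 of 2782.

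Signs changed for 3 genes that did not pass, TREX1, RNASEH2B and SAMHD1. TREX1, at 0.14, was -0.30 with voom, -0.175 with median ratio scaling, -0.31 without knockout-labelled library 1 and -0.010 without wild-type library 3, and leaving out 1 library gave -0.31 to 0.49. RNASEH2B, at 0.10, was -0.93 with the GC trend removed, -0.066 with voom, -0.20 with median ratio scaling, -0.067 without knockout-labelled library 2 and -0.12 without wild-type library 3, and leaving out 1 library gave -0.12 to 0.32. SAMHD1, at 0.38, was -0.39 with the GC trend removed. Removing the trend gives a change relative to genes of like GC content, whose median was 0.81 around SAMHD1 and 1.10 around RNASEH2B. The cause of the other changes of sign was not tested. Reads per wild-type library were 1 for TREX1, 0 to 4 for TBK1, 3 to 9 for STING1 and 5 to 6 for RNASEH2B, which limits these comparisons.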
